A study of Mus musculus with 24 samples.

Results

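Corticosterone-treated cells that carried the tetra form of the glucocorticoid receptor were compared with corticosterone-treated cells that carried the wild-type receptor. All were C127 cells (C127l in the labels), a mouse mammary adenocarcinoma line in which the cells' own receptor had been knocked out (GRKO) and a GFP-tagged mouse receptor put in its place. The wild-type form (GFP-mGRwt, here wt) and the GFP-mGRtetra form (here tetra) each make up a line of their own, so the form of the receptor and the line that carries it cannot be told apart. Both groups were kept in medium with charcoal-stripped serum, which removes steroids, for 24 h and then given 100 nM corticosterone (Cort) for 2 h. The members are the 3 tetra and the 3 wt libraries with Cort, 6 of the 24 libraries of total RNA in the series, chosen by their labels. The other 18 libraries are vehicle, 100 µM TCA for 2 h, and TCA plus Cort for 2 h in the same lines, 3 libraries per group. The labels do not spell out TCA, nor do they say whether replicates were separate cultures, so p-values measure the spread between these libraries, which may be technical.

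The glucocorticoid receptor is a steroid-activated transcription factor of the nuclear receptor family. Without hormone it sits in the cytoplasm with HSP90 and its cochaperones, and with hormone it enters the nucleus, binds glucocorticoid response elements and raises or lowers transcription of nearby genes within hours. Earlier work describes the tetra form as a receptor with a point mutation in its DNA-binding domain that is found as tetramers; the labels do not describe it. Corticosterone is the main glucocorticoid of mice.

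The 6 Cort libraries held 22.9 M to 29.0 M exon reads, with 16080 to 16624 genes detected and 18.2 to 24.0% of reads on Rn45s, the 45S ribosomal RNA precursor. The lines fell apart on the first principal component of the tested genes, which took 67.1% of their variance, and the second took 10.3%. As for cell identity, 18 of 20 mesenchymal markers passed the filter on low counts and 6 of 20 epithelial markers did. Epcam, Cdh1, Krt5 and Cldn3, which mark epithelial cells, were at 0 in all 6 libraries, although the labels call the cells adenocarcinoma. Krt14, Tjp1, Grhl2 and Pkp3 were among the epithelial markers that passed. Of 10 mast cell markers, 6 (Kit, Fcer1a, Cpa3, Cma1, Mcpt4 and Ms4a2) were also at 0 in all 6 libraries. Tpsab1 and Gata2 passed the filter and are given with the other markers. Of 14 immune cell markers, 5 were at 0 in all 6 libraries, Cd3e, Adgre1, Tyrobp and Cd52 among them, and 4 passed the filter (Cd68, Cd14, Lyz2 and Csf1r, given with the other markers). The line contrast changed from Cort to TCA plus Cort for 5656 of 12890 tested genes (43.9%), in a test given at the end. For genes named there, the wt libraries with TCA lay far from the wt libraries without it. The 6 Cort libraries hold no TCA. Values below are normalised read counts, that is, reads divided by a size factor per library, given as mean ± SD with n = 3 per group. Differences are tetra minus wt on a log2 scale with SE, and a gene counts as called at an adjusted p below 0.05 in limma, a linear model fitted over all genes. Genes whose mean was below 10 in one line, such as Lcn2, Clec1a, Cd36, Hsd11b2 and Gsta3 below, passed the filter on the strength of the other line, so their values are a description.

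With Cort, 5084 of 12866 tested genes (39.5%) were called between the lines. Of these, 2563 (19.9%) were higher in tetra and 2521 (19.6%) were higher in wt. Most differences were small: the median called gene differed 1.27-fold, and 401 called genes (3.12%) differed at least 2-fold. Large differences lay more often on the wt side, with 286 genes at least 2-fold higher in wt and 115 in tetra. At 4-fold the counts were 40 and 17, and at 8-fold 12 and 4. The libraries of both groups did not overlap for 6260 genes (48.7%). List members named below were mostly chosen by small adjusted p in this contrast, so a lack of overlap adds nothing to their calls. When libraries were scaled to total exon reads less Rn45s, 3512 genes were called higher in tetra and 1993 higher in wt, so the balance of directions depends on the scaling. The counts over gene lists that follow are to be read against the 19.9% and 19.6% of all tested genes, and a share near these is no result about a list. In bulk RNA, fewer cells of a kind and less RNA per cell cannot be told apart.

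Much of this line contrast was present without hormone. In the vehicle libraries 5663 of 12803 genes (44.2%) were called between the lines, 21.4% higher in tetra and 22.8% lower. Of the 5084 genes called with Cort, 5061 were tested in vehicle, and 4059 of them (80.2%) were called there in the same direction, which is 71.7% of the vehicle calls. The opposite direction was called for 16 genes. A test of the change in the line contrast itself, over the 12 vehicle and Cort libraries, called 150 of 12843 genes (1.17%), of which 129 (1%) shifted toward tetra with hormone and 21 (0.164%) toward wt.

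**Figure D1:**
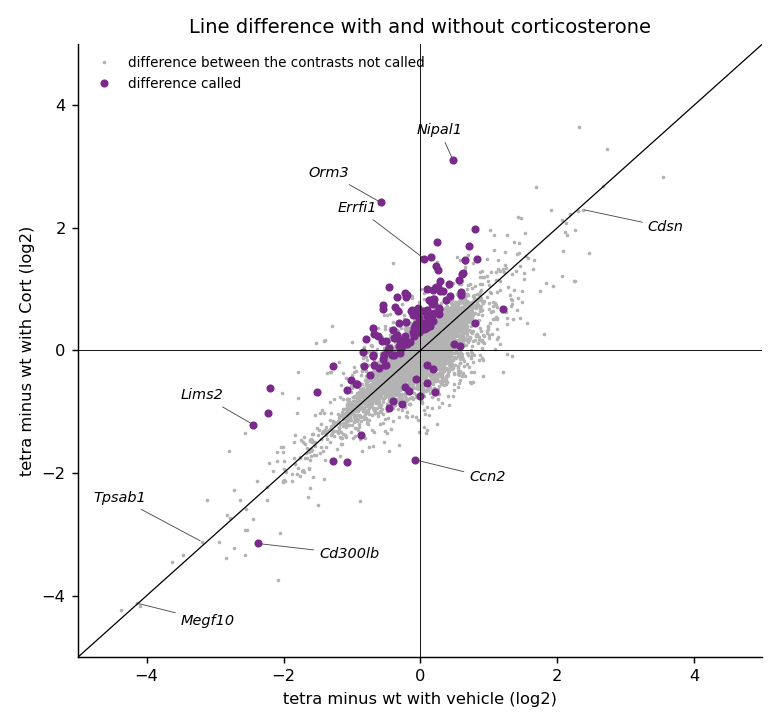
Each point is a gene, placed by its tetra minus wt log2 difference in the vehicle libraries (horizontal axis) and in the Cort libraries (vertical axis), 3 libraries per group. The purple points are genes whose line contrast was called as changed with Cort; points above the diagonal shifted toward tetra, such as Orm3 and Nipal1, and those below it toward wt, such as Ccn2.

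Nr3c1 (chromosome 18, 39410545 to 39489776, mm10), which encodes the glucocorticoid receptor, was read at 5678, 5767 and 6132 normalised counts in wt libraries 1 to 3 with Cort and at 5033, 4854 and 5442 in tetra. The groups did not overlap, and tetra was lower by a small margin. The log2 difference was −0.20 ± 0.06 (limma adjusted p = 0.00897). The call was lost with scaling to exon reads less Rn45s (adjusted p = 0.0568), without the intensity trend (0.0643) and without tetra replicate 2 (0.0525). In vehicle the difference was −0.02 (adjusted p = 0.742). The order was reversed in the libraries with TCA, scaled over the 24 libraries. With TCA alone Nr3c1 was at 4257 ± 64.5 in wt and 5885 ± 569 in tetra. With TCA plus Cort it was at 4260 ± 57.3 and 5297 ± 106, and the lines did not overlap in either treatment. Reads of the introduced receptor and of any transcript left at the knocked-out gene are not separated in these counts.

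The classical targets of the receptor did not differ between the lines in 1 direction. Fkbp5 (chromosome 17, 28398753 to 28486149), a cochaperone that lowers the receptor's affinity for hormone, stood at 1845, 1753 and 1752 in wt and 3431, 3527 and 3560.4 in tetra. All tetra libraries were above all wt libraries, and the means differed 1.97-fold (log2 0.98 ± 0.05, limma adjusted p = 5.23e-11). Its vehicle levels were 1349.8, 1331 and 1356 in wt and 1579, 1653 and 1673 in tetra, a difference of 0.28, so the line contrast grew by 0.69 ± 0.07 with hormone (adjusted p = 5.63e-07). Sgk1 (chromosome 10, 21994666 to 21999902), a kinase that regulates sodium transport and survival, went the other way. It was read at 9369, 10117 and 10578 in wt and at 5827, 5636 and 5489.5 in tetra, 1.77-fold higher in wt with no overlap (log2 −0.82 ± 0.06, adjusted p = 1.15e-09). In vehicle wt was already higher, with a difference of −0.40, and the contrast shifted further toward wt by −0.43 ± 0.07 (adjusted p = 0.000775). Ccn2 (chromosome 10, 24595442 to 24598682), a secreted matricellular protein, was also higher in wt with Cort, while no line difference was called for it in vehicle. With Cort it stood at 894, 953 and 893 in wt and 248, 300.0 and 247 in tetra, 3.44-fold higher in wt (log2 −1.79 ± 0.09, adjusted p = 9.87e-12). In vehicle the values were 58.4, 32.1 and 56.8 in wt and 38.3, 54.4 and 43.5 in tetra, with overlapping groups and a difference of −0.08 (adjusted p = 0.815).

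Sgk1 and Mt1 are the 2 members of the glucocorticoid-induced list described next whose RefSeq promoter (250 bases before to 50 after the start) holds the glucocorticoid response element GNACANNNTGTNC, searched on both strands, and the promoter of Sgk1, a panel gene, is printed for that reason. The element is present in 0.475% of 32851 mouse promoters of this length. No share over the glucocorticoid-induced list is given, because only 32 of its 42 tested members have a RefSeq promoter. Capitals mark the element in the window chr10:21993640-21993939, plus strand, GRCm38.p6 (the assembly behind mm10), which belongs to a RefSeq start upstream of the transcript given above.
Sgk1: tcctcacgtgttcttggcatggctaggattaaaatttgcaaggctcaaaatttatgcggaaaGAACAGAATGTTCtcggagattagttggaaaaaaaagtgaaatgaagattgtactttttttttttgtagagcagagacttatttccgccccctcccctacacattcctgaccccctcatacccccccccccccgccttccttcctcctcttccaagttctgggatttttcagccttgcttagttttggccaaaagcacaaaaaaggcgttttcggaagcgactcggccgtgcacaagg

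Orm3 (chromosome 4, 63356162 to 63359511), an acute-phase plasma glycoprotein gene, had the largest shift among the 150 genes whose line contrast changed with hormone. Wt libraries with Cort held 505, 524 and 505 normalised reads and tetra libraries 2746, 3113 and 2379. Tetra was 5.37-fold higher with no overlap (log2 2.41 ± 0.08, limma adjusted p = 4.09e-14). Without hormone the order was reversed: wt held 132, 109 and 144 and tetra 87.9, 86.7 and 80.2, a difference of −0.58 (adjusted p = 0.00196). The line contrast thus shifted by 2.99 ± 0.14 (adjusted p = 3.29e-12). Orm1, Orm2 and Orm3 are close copies whose reads may be shared, so the split among them is uncertain. Lcn2 (chromosome 2, 32384637 to 32387739), an iron-siderophore-binding protein of the acute phase, was at 4.34, 3.04 and 3.17 in wt, near the floor of 3 counts, and at 61.8, 63.7 and 40.6 in tetra. All tetra libraries lay above all wt libraries; the gene passed the filter on low counts through tetra, so no fold and no test are given.

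Both feedback inhibitors of growth factor signalling in the panel were higher in tetra with Cort. Errfi1 (chromosome 4, 150855070 to 150868889), an inhibitor of the EGF receptor, stood at 328, 316 and 312 in wt and 931, 841 and 926 in tetra with Cort, 2.82-fold higher in tetra (log2 1.49 ± 0.07, limma adjusted p = 1.61e-11). In vehicle it stood at 259.9, 219 and 296 and 255, 287 and 262, and those groups overlapped. Dusp1 (chromosome 17, 26505591 to 26508472), a phosphatase that switches off MAP kinases, was at 273, 314 and 282 in wt and 576, 555 and 543 in tetra, 1.92-fold higher in tetra (log2 0.94 ± 0.08, adjusted p = 3.50e-08). Its vehicle difference was −0.23 (adjusted p = 0.0759), and the contrast shifted by 1.17 ± 0.13 (adjusted p = 3.41e-06). Klf9, a Krüppel-like transcription factor, and Angptl4, a secreted lipase inhibitor, were lower in tetra without hormone and higher with it. Klf9 went from −0.34 in vehicle to 0.25 ± 0.07 with Cort (adjusted p = 0.00624). Angptl4 went from −0.22 to 0.23 ± 0.06 (adjusted p = 0.00428).

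For 2 classical targets no line difference was called. Tsc22d3 (chromosome X, 140539529 to 140548571), the gene of the anti-inflammatory leucine zipper protein GILZ, was at 1524, 1597 and 1759 in wt and 1791, 1847 and 1715 in tetra; the groups overlapped, with a difference of 0.14 ± 0.06 (limma adjusted p = 0.0940) and a 95% interval of 0.00 to 0.27. Per1 (chromosome 11, 69098949 to 69109957), a clock repressor, was at 2947, 3189 and 2635 in wt and 2537, 2891 and 2571 in tetra, a difference of −0.13 ± 0.07 (adjusted p = 0.141) with a 95% interval of −0.28 to 0.01. Both became called without wt replicate 3, Tsc22d3 as higher in tetra (adjusted p = 0.0130) and Per1 as lower (0.0143).

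**Figure D2:**
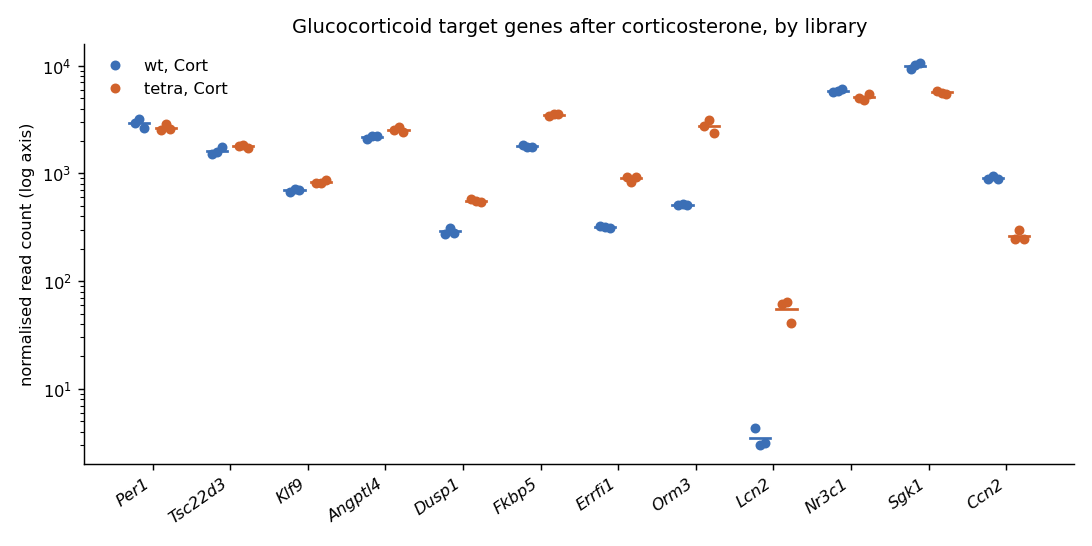
Normalised read counts of the 12 panel genes in the 3 wt and 3 tetra libraries with Cort, on a log axis; points are libraries and bars are group means. With Cort the lines do not overlap for Fkbp5, Dusp1, Klf9, Errfi1, Orm3, Lcn2 and Angptl4 (tetra above) nor for Nr3c1, Sgk1 and Ccn2 (wt above), and they overlap for Tsc22d3 and Per1.

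Among 42 tested genes of a list of glucocorticoid-induced genes, 26 were higher in tetra with Cort and 8 were lower, with a median log2 difference of 0.45 against 0.00 over all tested genes. In vehicle the same list held 9 higher and 20 lower among 39 tested, with a median of −0.23. The change of the contrast was called for 27 of the 42, of which 24 shifted toward tetra and 3 toward wt, beside 1.17% of all genes. The list was drawn up with results of these data known and is no independent evidence of its direction. Besides the panel, members higher in tetra with Cort were Nipal1, a magnesium transporter family gene (29.6 in wt, 241 in tetra, 3.11), Sik1, a salt-inducible kinase (1.48), Arl4d, a small GTPase gene (1.70), and Il6ra, the interleukin-6 receptor (1.03). Members lower in tetra with Cort were Ccn2, Sgk1, Lims2 (−1.21) and, chosen after their values were seen, Pdk4 (−1.37), Klf6 (−0.78), Per2 (−0.50), Mt1 (−0.26) and Irs2 (−0.27). Pdk4, a kinase that restrains pyruvate oxidation, was at 244, 238 and 245 in wt and 99.2, 89.4 and 91.9 in tetra, and its vehicle difference was −1.13.

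Several genes were lower in tetra in vehicle and higher in tetra with Cort. Tgm2 (chromosome 2, 158116405 to 158146392), a transglutaminase that cross-links proteins, went from −0.54 in vehicle to 0.68 ± 0.06 with Cort; its Cort libraries held 2698, 2732 and 2568 in wt and 4114, 4738 and 3986 in tetra, without overlap, and the shift was 1.22 ± 0.08 (limma adjusted p = 2.45e-09). Il6ra went from −0.46 to 1.03 ± 0.08, with Cort values of 369, 332 and 357 in wt and 702, 715 and 748 in tetra. Adm, the gene of the vasodilator peptide adrenomedullin, went from −0.34 to 0.87 ± 0.09, with 394, 422 and 335 in wt and 753, 685 and 664 in tetra. In these genes all tetra libraries with Cort lay above all wt libraries. Shifts of more than 1 on the log2 scale also occurred for Nipal1 (2.64), Notch4 (1.54), Slc25a33, a mitochondrial pyrimidine nucleotide carrier (1.37), Fam129a (1.29) and Adgra1, an adhesion G protein-coupled receptor (1.18). Lims2 shifted by 1.23 yet stayed lower in tetra with Cort (232, 238 and 262 in wt and 103, 94.5 and 118 in tetra). It overlaps Gpr17 on the opposite strand, and the strand setting of the counting is not given in the sources used here. For the same reason the counts of Carm1, Fosl1, Ctsb, Timp1, Gadd45a, Dbp, Cdc20, Tiparp, Bhlhe40, Hoxb5, Aldh1a1 and Lipe, named below, are uncertain where an antisense gene overlaps them, and those of Spag1 and Timp2 where a gene on the same strand does.

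Of the 21 genes that shifted toward wt, the naming rule gave 10, with Ccn2 first. Hes1 (chromosome 16, 30065357 to 30067796), a transcriptional repressor downstream of Notch, was at 268, 289.8 and 243 in wt and 164, 184 and 153 in tetra with Cort (log2 −0.67 ± 0.11, limma adjusted p = 7.08e-05). Its vehicle difference was 0.22 (adjusted p = 0.103), so the shift was −0.90 ± 0.15 (adjusted p = 0.00129). Neat1, the long noncoding RNA of paraspeckles, was among the most abundant RNAs, at 156343, 176895 and 151597 in wt and 39514, 52954 and 45222 in tetra; it was lower in tetra in both conditions and shifted by −0.76. Pmepa1 and Smad6, feedback inhibitors of TGF-beta and BMP signalling, were lower in tetra, with differences of −1.81 and −1.39, and shifted by −0.52 and −0.52. Ankrd1, a muscle ankyrin repeat gene and YAP target, shifted by −0.50 to −0.95. Ddit4, an inhibitor of mTOR complex 1, stayed higher in tetra, but the gap was 1.21 in vehicle and 0.68 with Cort. Zfp697, Cd300lb and Spag1 shifted by −0.74, −0.77 and −0.49.

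Of the genes of the receptor's own machinery, 13 of 24 tested members were higher in tetra with Cort and 4 were lower, with a median of 0.19, beside 19.9% higher and 19.6% lower of all tested genes. Beside Fkbp5 these included Fkbp4, the immunophilin that links the receptor to dynein (3294 ± 10.8 in wt and 4846 ± 183 in tetra, log2 0.56 ± 0.05, limma adjusted p = 7.20e-08), the HSP40 cochaperone Dnajb1 (0.44 ± 0.06) and Hsp90b1, the HSP90 of the endoplasmic reticulum (0.44 ± 0.07). The cytosolic HSP90 genes, chosen after their values were seen, differed by 0.44 (Hsp90aa1) and 0.17 (Hsp90ab1). The lower members were Nr3c1, Bag3 (−0.30), St13 (−0.25) and Hsd11b2 (−1.72), the last an enzyme that inactivates corticosterone and was read at 7.99 in tetra and 27.3 in wt. Of the 24 members, the contrast changed with hormone for 1, Fkbp5. Receptor coregulators help the bound receptor act on chromatin. Among 24 tested, 4 were higher in tetra and 1 was lower, with a median of 0.02; the lower gene was Smarca2, an ATPase of the BAF chromatin remodelling complex (−0.31 ± 0.05). Tle1, a corepressor (0.35 ± 0.06), the deacetylase Hdac2 (0.31 ± 0.05) and the arginine methyltransferase Carm1 (0.25 ± 0.05) were higher in tetra. Tle1 also shifted against vehicle, by 0.30.

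Genes of cholesterol synthesis, a pathway that starts from acetyl-CoA, were lower in tetra. Of 24 tested genes of sterol synthesis and uptake, 23 were lower in tetra with Cort, with a median of −0.70. The other was Srebf1, which encodes a sterol-regulated transcription factor and was not called (0.07, limma adjusted p = 0.349). Insig1 (chromosome 5, 28071412 to 28078662), the sterol sensor that retains SREBP in the endoplasmic reticulum, was read at 8719, 9679 and 10131 in wt and 4335, 4627 and 4074 in tetra, 2.19-fold higher in wt (log2 −1.13 ± 0.06, adjusted p = 6.99e-11). Msmo1, which oxidises the methyl groups of lanosterol derivatives, was at 2733, 2621 and 2960.1 in wt and 1306, 1277 and 1371 in tetra (log2 −1.07 ± 0.06, adjusted p = 7.43e-11). Nsdhl, which acts on the same groups, differed by −0.98 ± 0.06. In none of these 3 genes did the lines overlap. The early enzyme Hmgcs1, given outside the naming rule as an entry step of the pathway, differed by −0.96 ± 0.06. The vehicle libraries gave the same count, 23 of 24 lower in tetra with a median of −0.64, and the median shift from vehicle to Cort was −0.02. In the TCA plus Cort libraries 23 of 24 were again lower in tetra, with a median of −0.95. Several other lists lost or changed their direction there, as given at the end.

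SREBP proteins act on such genes through sterol regulatory elements. The 300-base promoter of Hmgcs1 in RefSeq holds the motif TCACNCCAC (both strands searched; 1.24% of all 32851 promoters hold it), and it is printed with the motif in capitals. No share over the list is given, since only 16 of 24 tested members have a RefSeq promoter. The window is chr13:119690101-119690400, plus strand, GRCm38.p6.
Hmgcs1: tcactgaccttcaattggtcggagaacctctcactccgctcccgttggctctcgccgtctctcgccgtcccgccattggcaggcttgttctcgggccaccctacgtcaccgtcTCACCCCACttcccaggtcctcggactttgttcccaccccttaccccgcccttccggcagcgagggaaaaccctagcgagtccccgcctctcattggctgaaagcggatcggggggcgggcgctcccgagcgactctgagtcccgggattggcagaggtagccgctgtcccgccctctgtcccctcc

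**Figure D3:**
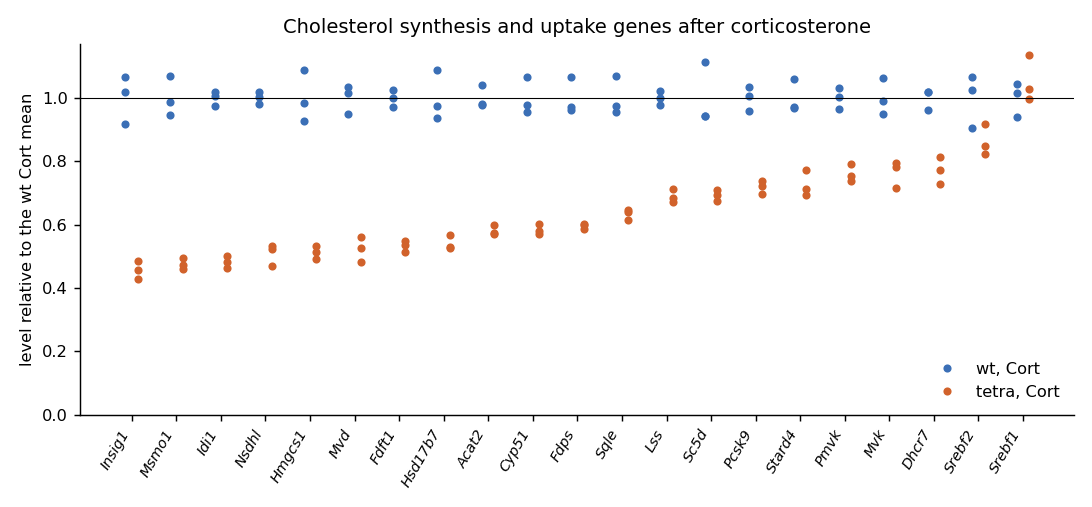
Level of 21 of the 24 tested genes of cholesterol synthesis and uptake in the 3 wt (blue) and 3 tetra (orange) libraries with Cort, divided by the mean of the 3 wt libraries with Cort; points are libraries and the line at 1 marks equal levels. All genes shown but Srebf1 were called lower in tetra, with Insig1 libraries between 0.428 and 0.486 of the wt mean.

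The antioxidant genes controlled by NRF2 were also lower in tetra. Of 26 tested, 24 were lower and 1 was higher with Cort (median −0.66), and 25 and 1 in vehicle (median −0.58); the median shift between them was −0.03. Smallest in adjusted p was Nqo1 (chromosome 8, 107388225 to 107403205), a quinone reductase, at 2566, 2526 and 2433 in wt and 369, 280.4 and 336 in tetra, 7.64-fold higher in wt (log2 −2.94 ± 0.08, limma adjusted p = 5.76e-15). Aldh3a1, an aldehyde dehydrogenase, was at 1516, 1384 and 1435 in wt and 162, 201 and 135 in tetra (log2 −3.13 ± 0.11). Hmox1, the haem oxygenase, was at 2129, 2036 and 1911 in wt and 707, 593 and 645 in tetra (log2 −1.64 ± 0.07), and Aldh1a1, which makes retinoic acid, differed by −1.43 ± 0.06. No library of one line reached the levels of the other for these 4 genes. The exception in direction was the cystine transporter Slc7a11 (0.22 ± 0.06, adjusted p = 0.0108), and Tkt was not called (−0.09, adjusted p = 0.191). Transcript of the factor itself, Nfe2l2, differed by −0.14 ± 0.05 (adjusted p = 0.0483). Glutathione transferases ranged from −0.30 (Gsta1) to −0.99 (Gstm1) and −1.50 (Gsta2), apart from Gsta3, which was at 0, 2.05 and 0 in tetra and 18.4, 21.3 and 45.4 in wt; the reads of these close copies may be shared. Nqo1 and Aldh3a1 are targets of the aryl hydrocarbon receptor as well: 4 of 5 tested genes of that list were lower in tetra, including Ahr itself (−0.62 ± 0.11) and Tiparp (−0.39 ± 0.07), and Arnt was not called (0.04).

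A core antioxidant response element, TGACNNNGC on either strand, was found in the promoters of 9 of the 21 NRF2 members with a RefSeq promoter (42.9%), against 16.6% of 9996 tested genes with a promoter and 12.4% of all 32851. The match is short and describes letters only. The promoter of Txnrd1, the cytosolic thioredoxin reductase (9804 ± 218 in wt and 6075 ± 184 in tetra, log2 −0.69 ± 0.05), is printed as an example, with the element in capitals on the opposite strand (chr10:82858956-82859255, plus strand, GRCm38.p6).
Txnrd1: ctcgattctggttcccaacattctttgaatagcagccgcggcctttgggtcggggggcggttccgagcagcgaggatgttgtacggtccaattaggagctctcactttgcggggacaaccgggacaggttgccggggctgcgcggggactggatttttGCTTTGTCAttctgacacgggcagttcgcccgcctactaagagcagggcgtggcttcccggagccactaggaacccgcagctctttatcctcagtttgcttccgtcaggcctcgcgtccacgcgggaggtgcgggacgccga

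Genes of the unfolded protein and integrated stress responses were higher in tetra: 17 of 23 tested were higher with Cort and 1 was lower, with a median of 0.44. Herpud1 (chromosome 8, 94386429 to 94395371), which serves degradation of proteins from the endoplasmic reticulum, was at 1147, 1133 and 1192 in wt and 2277, 2285 and 2184 in tetra, 1.94-fold higher in tetra (log2 0.96 ± 0.06, limma adjusted p = 1.44e-10). Phgdh and Psat1, the first steps of serine synthesis and targets of ATF4, differed by 0.74 ± 0.05 and 0.60 ± 0.05. Trib3, a pseudokinase that feeds back on ATF4, was at 1889, 2154 and 2121 in wt and 3797, 3304 and 3680.4 in tetra (log2 0.81 ± 0.06). Tetra lay above wt in every library for these 4 genes. The lower member was Ddit3, which encodes CHOP (−0.26 ± 0.08, adjusted p = 0.0118). In vehicle 18 were higher and 2 lower, with a median of 0.45. The contrast changed with hormone for 2 members: Herpud1 by 0.36 toward tetra and, chosen after its value was seen, Chac1 by −0.36 toward wt.

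The endoplasmic reticulum stress element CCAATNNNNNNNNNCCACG, searched on both strands, was present in 4 of the 21 members with a RefSeq promoter (19%), namely Hspa5, Hsp90b1, Creld2 and Calr, against 0.2% of 9996 tested genes with a promoter and 0.119% of all 32851. This share describes the letters of promoters only, uses no reads and is no result about the lines. Hspa5 encodes BiP, the main chaperone of the endoplasmic reticulum, and was read at 9280.2 ± 531 in wt and 15035 ± 1052 in tetra with Cort (log2 0.70 ± 0.06, limma adjusted p = 3.76e-08). Both promoters below are given in the gene's own direction with the elements in capitals; Hsp90b1 holds 2, one on each strand. Their windows are chr2:34771840-34772139, plus strand for Hspa5 and chr10:86705395-86705694, minus strand for Hsp90b1, GRCm38.p6.
Hspa5: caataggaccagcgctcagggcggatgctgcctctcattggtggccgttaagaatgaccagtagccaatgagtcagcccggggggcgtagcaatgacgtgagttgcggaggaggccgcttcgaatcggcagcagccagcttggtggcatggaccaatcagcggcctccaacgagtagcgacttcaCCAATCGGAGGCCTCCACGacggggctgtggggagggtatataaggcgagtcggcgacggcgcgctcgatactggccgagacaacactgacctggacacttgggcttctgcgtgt
Hsp90b1: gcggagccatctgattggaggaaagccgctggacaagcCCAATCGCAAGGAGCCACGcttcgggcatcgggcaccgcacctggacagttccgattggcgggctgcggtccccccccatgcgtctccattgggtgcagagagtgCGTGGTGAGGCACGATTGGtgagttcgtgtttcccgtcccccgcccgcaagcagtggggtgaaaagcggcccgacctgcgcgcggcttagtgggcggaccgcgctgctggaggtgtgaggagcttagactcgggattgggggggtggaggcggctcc

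Glycolysis and hypoxia genes were also higher in tetra, with 18 of 29 higher in tetra with Cort, 1 lower (Hk2, hexokinase 2, −0.32) and a median of 0.34. In vehicle 17 were higher and 3 lower, and the median shift between them was 0.04. Pdk1 (chromosome 2, 71873224 to 71903858), which restrains pyruvate dehydrogenase in hypoxia, was at 68.4, 79.0 and 94.0 in wt and 279, 268 and 267 in tetra (log2 1.75 ± 0.13, limma adjusted p = 2.93e-09). Bnip3, a mitophagy receptor, was at 772, 761 and 885 in wt and 1709.9, 1468 and 1522 in tetra (log2 0.96 ± 0.07). The glycolytic enzymes Pfkl and Pgk1 differed by 0.81 ± 0.05 and 0.66 ± 0.06. No overlap was seen between the lines for these 4 genes.

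Of 66 tested replication histone genes, 63 were called higher in tetra with Cort and 3 were not called, with a median of 0.48. In vehicle 55 were higher and 1 lower, with a median of 0.26. Many are near-identical copies among which reads may be split. Of 32 cell cycle genes, 19 were higher in tetra and 1 was lower, with a median of 0.18; the lower one was Rrm2, a subunit of ribonucleotide reductase (−0.33). The differences were small, as for the helicase subunits Mcm4 (0.32 ± 0.05) and Mcm2 (0.31 ± 0.05), the mitotic activator Cdc20 (0.35 ± 0.06) and the kinase Aurka (0.38 ± 0.07). The number called higher was 12 without the intensity trend, 12 without tetra replicate 1 and 27 with scaling to exon reads less Rn45s. Ribosomal protein genes were higher in tetra for 61 of 77 and not called for 16, with a median of 0.25; 34 were called higher without the intensity trend. Small nuclear, nucleolar and RNase P RNAs went mostly uncalled, with 1 of 66 higher and 9 lower; the lower count was 5 without tetra replicate 3 and 5 in a fit over all 24 libraries.

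**Figure D4:**
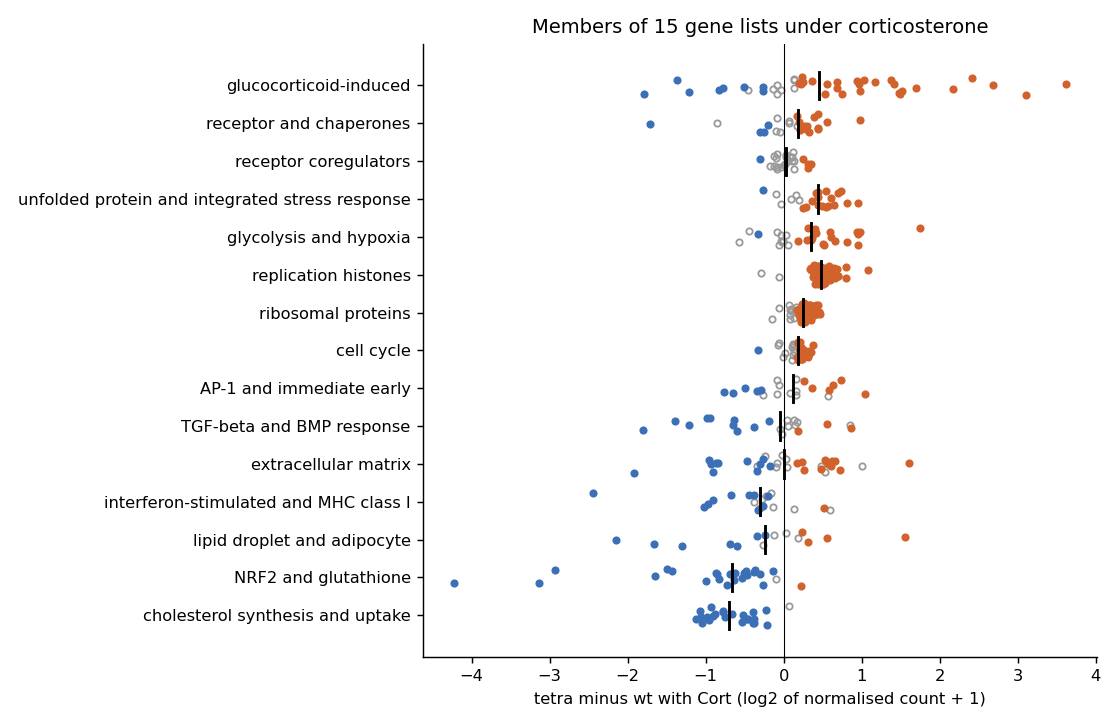
Tetra minus wt log2 differences with Cort for the tested members of 15 gene lists; each point is a gene, blue points were called lower and orange points higher in tetra by limma, open points were not called, and the bar marks the list's median. The medians of the cholesterol and NRF2 lists lie left of 0, at −0.70 and −0.66, and those of replication histones and stress response genes right of it, at 0.48 and 0.44.

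Of the 28 named genes with the largest differences, 14 in each direction, 6 also had a line contrast that was called as changed against vehicle. Among called genes with a mean count of 50 or more and no overlap between the lines, Megf10, an engulfment receptor, was the furthest toward wt. It stood at 218, 216 and 236 in wt and 10.1, 12.3 and 13.2 in tetra with Cort (18.8-fold, log2 −4.13 ± 0.18, limma adjusted p = 2.44e-12), and the difference was −4.14 in vehicle. Gpnmb (chromosome 6, 49036518 to 49058182), a lysosomal glycoprotein, was at 9655, 9225 and 9339 in wt and 1439.6, 1355 and 1443 in tetra (log2 −2.73 ± 0.05, adjusted p = 2.36e-17). All wt libraries lay above all tetra libraries for both genes, which the rule that named them required. Clec1a and Cd300lb, cell surface receptors known from myeloid and endothelial cells, differed by −3.22 and −3.15, and Gucy2e, a guanylate cyclase of photoreceptors, by −2.99. Adamtsl2, a matrix protein, differed by −2.75, the chemokine gene Cxcl12 by −2.60, the MAP kinase phosphatase Dusp4 by −2.45, and the steroid dehydrogenase Hsd17b14 by −2.24. Toward tetra the rule named Nipal1, Orm3 and the genes that follow. Cdsn, corneodesmosin, was at 389.6, 448 and 394 in wt and 1977, 2153 and 1935 in tetra (log2 2.30 ± 0.07, adjusted p = 2.35e-14; vehicle 2.37). Sbsn, suprabasin, and Krt13, a keratin of stratified epithelium, differed by 2.17 and 1.54. Fyb2 (2.22), Scara5, a ferritin receptor (2.13), Adgra1 (1.98), Notch4 (1.77), Arl4d (1.70), Rnf165 (1.63), Col3a1 (1.6) and Iqcn (1.52) made up the rest with Pdk1.

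Of 15 genes of lipid storage, 7 were lower in tetra with Cort, 4 were higher, and the median was −0.23. Pparg (chromosome 6, 115422066 to 115490401), the master regulator of fat storage, was at 1464, 1488 and 1546 in wt and 357, 308 and 343 in tetra, 4.46-fold higher in wt (log2 −2.16 ± 0.07, limma adjusted p = 6.27e-14). The lipid droplet coat gene Plin2 differed by −1.30 ± 0.05 and the droplet fusion gene Cidec by −1.66 ± 0.16. Plin4, another coat protein gene, differed by −0.69 ± 0.07 with Cort and by −1.52 in vehicle, a shift of 0.83 ± 0.08 (adjusted p = 8.17e-07). It overlaps Hdgfl2 on the opposite strand. All 5 tested genes of the proliferin and mast cell protease list were lower in tetra, with a median of −2.11. Tpsab1 (chromosome 17, 25343245 to 25345562), a tryptase known from mast cells, was among the most abundant, at 38418, 34680.1 and 31914 in wt and 4422, 3717 and 3930.3 in tetra (8.70-fold higher in wt, log2 −3.12 ± 0.07, limma adjusted p = 2.88e-16). Of 10 mast cell markers, 6 were at 0 in all 6 libraries. The proliferin genes Prl2c2, Prl2c3 and Prl2c4 differed by −2.11, −1.75 and −1.75; they are near-identical copies, 2 of which overlap, so their split is uncertain.

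Extracellular matrix genes split evenly, with 11 of 32 higher in tetra and 11 lower (median 0.00), beside 19.9% and 19.6% of all tested genes. The lower ones were led by Thbs1, thrombospondin, at 51070, 54071 and 50879 in wt and 12466, 15394 and 13451 in tetra (3.78-fold higher in wt, log2 −1.92 ± 0.07, limma adjusted p = 1.93e-13). The basement membrane genes Col4a1, Col4a2 and Lamb2 differed by −0.96 ± 0.07, −0.90 ± 0.06 and −0.94 ± 0.06; Col4a1 and Col4a2 are neighbours that overlap at their starts. Other collagen genes of the list went both ways: Col3a1 (1.6 ± 0.12), Col1a2 (0.48 ± 0.07), Col1a1, Col5a1, Col6a1 and Col6a2 were called higher in tetra, and Col5a2, Col6a3 and Col12a1 lower. Among matrix proteases and their inhibitors 6 of 14 were higher and 4 lower: cathepsin B (Ctsb, −0.89 ± 0.05), Mmp14 (−0.41 ± 0.05) and Timp2 (−0.36 ± 0.06) were lower in tetra and Timp1 (0.52 ± 0.08) was higher. The higher count was 3 without tetra replicate 3. Of 12 integrin genes 2 were called beside 39.5% of all tested genes, both lower in tetra, Itgb5 (−0.74 ± 0.06) and Itgb1 (−0.22 ± 0.06); Itga3 (−0.14, adjusted p = 0.0640) and Itgb2 (−0.70, adjusted p = 0.0704) were not.

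In the TGF-beta and BMP list 10 of 21 were lower in tetra and 3 higher (median −0.05), beside 19.6% and 19.9% of all tested genes. The lower genes include the direct targets Id3 (6101, 6136 and 6209 in wt and 2966, 2419 and 2612 in tetra, log2 −1.21 ± 0.06), Id2 (−0.98 ± 0.07), Pmepa1 (1865, 1693 and 1577 in wt and 461, 505 and 499 in tetra, log2 −1.81 ± 0.07) and Smad6 (−1.39 ± 0.08). The groups did not overlap for these genes, and with scaling to exon reads less Rn45s the list's median was 0.01. Of 17 YAP targets 6 were lower and 3 higher. Ccn2 and Ankrd1 belong here, with Asap1 (−0.46 ± 0.05) and Ccn1, a matricellular relative of Ccn2 (−0.44 ± 0.05). Hormone changed the contrast of 2 of the 17, Ccn2 and Ankrd1.

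For EGF receptor signalling 8 of 25 were higher in tetra and 4 lower, beside 19.9% and 19.6% of all tested genes. Dusp4 was at 3057, 2815 and 2771 in wt and 510.2, 531 and 541 in tetra (log2 −2.45 ± 0.06, limma adjusted p = 1.17e-15), Dusp7 differed by 0.57 ± 0.07, and Phlda1 by −0.66 ± 0.06 with a shift of −0.49 against vehicle. Errfi1 is the member described above. Of 20 AP-1 and immediate early genes 6 were higher and 5 lower. Jund (chromosome 8, 70697739 to 70700616) was at 5185, 5193 and 4572 in wt and 9916, 11807 and 9162 in tetra, 2.07-fold higher (log2 1.04 ± 0.08, adjusted p = 3.02e-09), and its contrast shifted by 0.78 ± 0.10 against vehicle (adjusted p = 3.33e-05). Jun and Fosl2 were higher in tetra by 0.63 ± 0.06 and 0.58 ± 0.05, and Fosl1 was lower by −0.50 ± 0.06. These transcription factors are partners of the receptor at many enhancers.

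Of 18 inflammatory genes, 5 were lower in tetra and 2 higher, beside 39.5% of all tested genes called in either direction. Nothing is read from this count, and 3 were lower in 5 of 15 alternative settings. The prostaglandin synthases Ptgs1 (−0.76 ± 0.05) and Ptgs2 (−0.65 ± 0.06) and the macrophage growth factor gene Csf1 (−0.24 ± 0.06) were lower, and Nfkb1 (0.42 ± 0.06) was higher. Interferon-stimulated and MHC class I genes were lower in tetra for 10 of 19 tested of 32 listed, and higher for 1. Tapbp, which loads peptide on MHC class I, was at 3594, 3778 and 3421 in wt and 1658, 1979 and 1709 in tetra (log2 −1.02 ± 0.07, limma adjusted p = 5.93e-10), B2m differed by −0.68 ± 0.06 and Ifit2 by −0.90 ± 0.12. The higher one was the peptide transporter Tap1 (0.51 ± 0.07). In vehicle 12 of 19 were lower.

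Of 10 Notch pathway genes, 5 were higher in tetra and 1 was lower, beside 19.9% and 19.6% of all tested genes. Notch3 (0.78 ± 0.09), Notch4 (1.77 ± 0.20), the ligand Jag1 (0.73 ± 0.09) and the DNA-binding effector Rbpj (0.74 ± 0.07) were higher, while the target Hes1 was lower. Wnt genes split 6 and 6 of 21, with the receptor Fzd1 (1.14 ± 0.14, shift 0.85) and Fzd5 (0.48 ± 0.07) higher and Fzd6 (−0.60 ± 0.05) and the transcription factor Tcf7 (−0.78 ± 0.07) lower. Of 23 Hox genes, which record position along the body axis, 2 were higher, Hoxb9 among them (0.61 ± 0.06), and 7 were lower, such as Hoxc13 (−0.51 ± 0.07), Hoxc11 (−0.59 ± 0.11) and Hoxb5 (−0.81 ± 0.17); the lower count was 4 without tetra replicate 1. Clock genes split 7 and 5 of 16, with Nfil3 (1.08 ± 0.07) and Dbp (0.57 ± 0.08) higher and Bhlhe40 (−0.43 ± 0.06) lower; without wt replicate 2 the higher count was 4. The p53 targets split 5 and 5 of 21, close to the shares of all tested genes (19.9% and 19.6%), so nothing is read from the count: Sesn2 (0.70 ± 0.06) and Gadd45a (0.42 ± 0.06) were higher, Perp (−0.41 ± 0.06) and Trp53inp1 (−0.51 ± 0.08) lower, and the lower count was 3 in 7 of 15 alternative settings.

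Markers of other cell types moved with the line in both directions. Summed mast cell markers ranged from 31988 to 38511 in wt and from 3826 to 4517 in tetra, nearly all of it Tpsab1; Gata2 was not called (0.37, limma adjusted p = 0.0665). Immune markers summed to 418 to 443 in wt and 238 to 275 in tetra, with Cd68 (−1.07) and Cd14 (−0.49) called lower in tetra and Lyz2 (−0.53) and Csf1r (−0.55) not called. Endothelial markers summed to 414 to 432 and 319 to 325; Egfl7 (−1.44) and Cdh5 (−0.49) were lower, Emcn (0.60) higher, Flt1 (−0.44) not called, and Kdr and Erg at 0. Adipocyte markers summed to 2076 to 2202 and 825 to 911, of which Pparg and Cidec were lower in tetra, Cd36 (1.55) higher, and Lipe (−0.26) not called, with Retn at 0. Mammary secretory markers summed to 79.0 to 96.6 in wt and 149.8 to 178 in tetra, with Csn3 (1.01) higher, Csn1s1 (0.56) not called and Csn2, Wap, Lalba, Glycam1 and Ltf at 0. Epithelial markers summed to 6197 to 6537 and 6101 to 7002, most of it Tjp1. Grhl2 (1.43), Pkp3 (1.06) and Tjp1 (0.15) were called higher in tetra and Krt14 (−0.96) lower. Grhl2 and Pkp3 were low, at 11.2 and 16.9 in wt and 31.8 and 37.0 in tetra with Cort, scaled over the 24 libraries. Mesenchymal markers summed to 219069 to 228980 and 217684 to 227201, with 4 of 18 higher in tetra and 5 lower, among them Snai2 (1.17), Col1a2, Pdgfrb (−0.77) and Twist2 (−0.75). The calls of Cd14, Emcn and Tjp1 were lost in several alternative settings, and the libraries of both lines overlapped for Emcn. Whether these markers play a part in the differences above was not tested.

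With TCA present, more of the Cort genes were called in the opposite than in the same direction, and many were not called. Between tetra and wt with TCA plus Cort, 4966 of 12886 genes (38.5%) were called, 20% higher in tetra and 18.6% lower. Of the 5084 genes called with Cort, 5041 were tested there; 971 were called in the same direction, 1457 in the opposite direction and 2613 were not called. With TCA alone 3162 of 12754 (24.8%) were called, 12.1% higher in tetra and 12.7% lower, and of 5024 Cort genes tested there 524 were called in the same and 1230 in the opposite direction. Among the 401 genes called at least 2-fold apart with Cort, same-direction calls were the more frequent. With TCA plus Cort 361 of them were tested, of which 111 were called in the same direction, 69 in the opposite and 181 not. With TCA alone 346 were tested, and these counts were 80, 74 and 192. The comparisons share no libraries. A test of the change of the line contrast from Cort to TCA plus Cort, which was added after seeing the data, called 5656 of 12890 genes (43.9%), 22.1% toward tetra and 21.8% toward wt. Tpsab1 in wt was 38187 ± 2500.3 in vehicle and 35100 ± 3281 with Cort, but 1152 ± 452 with TCA and 977 ± 97.0 with both, whereas tetra stood at 4175 ± 468, 4043 ± 354, 3597 ± 896 and 3787 ± 803 in that order, all scaled over the 24 libraries. Megf10 in wt was 198 ± 17.9, 224 ± 10.8, 12 ± 5.56 and 15.3 ± 8.32 in the same order, against tetra means from 10.8 to 14.3 over the 4 treatments. Cdsn in wt was 436 ± 57.0, 412 ± 32.5, 2402 ± 155 and 2862 ± 104, against tetra means from 2032 to 2396. In these 3 genes the wt libraries with TCA were closer to tetra than to the wt libraries without it. The next 3 genes, in the same order, were chosen after their values were seen. Nqo1 in wt was 2596, 2515, 476 and 432, against tetra means from 330 to 451. Trib3 in wt moved past tetra, at 1938, 2061, 8346 and 9276 against tetra means from 3402 to 3640. Insig1 in wt stayed above tetra, at 11289, 9536, 7989 and 8188 against tetra means from 3511 to 5597. Whether the treatment or another property of those wt libraries goes with these levels was not tested. The 8 panel genes whose contrast had changed with Cort went both ways. Orm3 was 65.1 ± 5.53 in wt and 2869 ± 349.6 in tetra with TCA plus Cort, a difference of 5.44. Fkbp5 (0.91), Errfi1 (1.24), Dusp1 (1.41) and Angptl4 (0.82) were also called higher in tetra there and Ccn2 (−0.94) lower, all in the direction seen with Cort. Sgk1 (0.94) was called higher in tetra and Klf9 (−0.42) lower, both opposite to their Cort differences. Among the other genes whose contrast had changed with Cort, Lims2 (1.00), Ankrd1 (0.92), Plin4 (2.21), Ddit4 (−0.58), Herpud1 (−0.44) and Tle1 (−0.21) were also called opposite to their Cort differences.

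**Figure D5:**
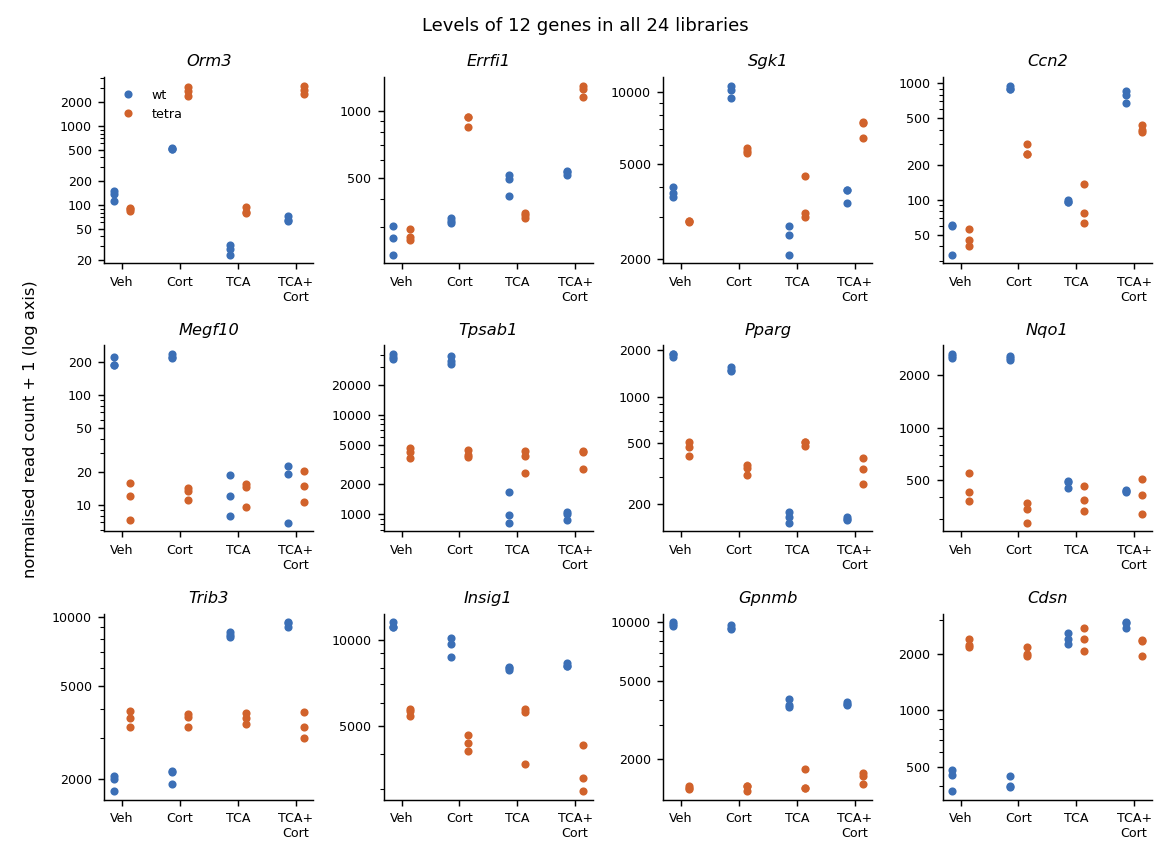
Normalised read counts plus 1 (log axis) of 12 genes in all 24 libraries by treatment, with wt and tetra libraries as points. Orm3 is high in tetra with Cort and with TCA plus Cort, and Megf10, Tpsab1, Pparg, Nqo1 and Cdsn show wt libraries with TCA far from wt libraries without it.

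Across the glucocorticoid-induced list, 31 of 42 tested genes were higher in tetra with TCA plus Cort and 6 were lower, with a median of 0.88. The stress response list turned, with 1 of 23 higher and 14 lower there, and the replication histones with 59 of 66 lower. Lipid storage genes were 8 higher and 2 lower of 15, and extracellular matrix genes 21 and 2 of 30. Of 25 NRF2 and glutathione genes 6 were higher and 13 lower, and of 29 glycolysis and hypoxia genes 5 and 2. Cell cycle genes were 4 higher and 13 lower of 32, and interferon-stimulated and MHC class I genes 6 and 3 of 19. Ribosomal protein genes were 32 higher and 1 lower of 77. Of all genes tested there 20% were higher and 18.6% lower.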

How the data were processed

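Total RNA from 24 libraries was sequenced with a stranded kit after ribosomal RNA removal, per the labels' protocols. The submitters' processing notes name HOMER 4.10.4, STAR 2.7.0f, cutadapt and the build mm10. HOMER counted raw reads over exons, condensed to one entry per gene, per the file headers. The strand setting is not given in the sources used here. The authors deposited variance-stabilised log2 values in 6 tables of 6 libraries each, and 4 tables, which hold all 24 libraries, were used. The headers name the tag directories by a Halo tag and the columns by GFP; columns were matched by form, treatment and replicate.

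Because values in separate tables are not on one scale, the transform was inverted and each library was divided by its smallest positive value. All values below 1000 then lay within 0.01 of a whole number (100%), and these recovered reads were used for 25124 symbols. A count-based model was not used, since the deposited unit is log2. Reads were divided by median-ratio size factors over the libraries of each fit, genes below a mean of 10 normalised reads were left out, and log2 (normalised count + 1) was tested with limma 3.58.1 (R 4.3.3) with an intensity trend and Benjamini-Hochberg adjustment over all tested genes. A fold change of means is the ratio of normalised counts, and log2 differences understate the change of low genes. The floor of 3 counts was 0.104 to 0.131 CPM in the Cort libraries and covers counting error only.

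Named genes were a panel of 12 genes, the genes with the largest differences in each direction, those with the largest changes of the line contrast against vehicle, up to 4 members of each list by adjusted p, and called markers of other cell types. The comparison, the 35 gene lists and these members were chosen with earlier results of these data known. Gene positions are RefSeq positions on mm10. Promoters are from RefSeq, GRCm38.p6. Alternatives were other scalings, filters, a pseudocount of 8, limma voom, no intensity trend, a fit over all 24 libraries, a replicate block and leaving out each library. Some genes are not reported here by name, although counts over lists include them. The scripts were tested on simulated data.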

Additional observations from a re-analysis of the deposited data

Results flagged for a closer look

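Groups hold 3 libraries each, so no single library was tested for standing apart. The named genes below stand out because their line contrast differed between treatments, by limma's test of that difference over 12 libraries at an adjusted p below 0.05. From vehicle to Cort the tetra minus wt log2 difference shifted toward tetra most for Orm3 (2.99), Nipal1 (2.64), Notch4 (1.54), Il6ra (1.49), Errfi1 (1.43), Slc25a33 (1.37), Fam129a (1.29) and Lims2 (1.23). Smaller shifts toward tetra were those of Tgm2 (1.22), Adm (1.21), Adgra1 (1.18), Dusp1 (1.17), Arl4d (0.99), Fzd1 (0.85), Plin4 (0.83) and Sik1 (0.82). The rest that moved toward tetra were Jund (0.78), Fkbp5 (0.69), Klf9 (0.59), Angptl4 (0.45), Herpud1 (0.36) and Tle1 (0.3). Shifts toward wt were those of Ccn2 (−1.71), Hes1 (−0.9), Cd300lb (−0.77), Neat1 (−0.76), Zfp697 (−0.74), Ddit4 (−0.53), Pmepa1 (−0.52), Smad6 (−0.52), Ankrd1 (−0.5), Spag1 (−0.49), Phlda1 (−0.49) and Sgk1 (−0.43).

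From Cort to TCA plus Cort, genes are given that were called in opposite directions in the separate line contrasts, each by at least 1 on the log2 scale. The tetra minus wt difference shifted toward tetra for Tpsab1 (5.05), Adamtsl2 (4.96), Pparg (3.2), Cidec (4.11), Prl2c2 (5.06), Prl2c4 (5.06) and Prl2c3 (5.07), and toward wt for Csn3 (−2.53). With TCA plus Cort, Adamtsl2 and Cidec were at 4.41 and 7.28 in wt and 24.1 and 45.5 in tetra, scaled over the 24 libraries. They passed the filter in that line contrast through tetra, so their shifts are a description. The proliferin genes Prl2c2, Prl2c3 and Prl2c4 are near-identical copies and count as one observation. Both comparisons use the Cort libraries.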

How the results depend on the processing

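Of 156 named genes, 144 kept their direction and call with Cort in all 15 alternatives, and 146 are called as reported. Many were named for large differences or small adjusted p in this same contrast, so the share does not describe all called genes. Flt1, not called (−0.44), ranged from −0.68 to 0.17 when each library was left out and changed sign without tetra replicate 2. Calls of Nr3c1, Tjp1, Emcn and Cd14 were lost in at least 1 alternative, and Tsc22d3, Per1, Gata2, Lipe, Itga3, Itgb2 and Csf1r gained one. Genes called numbered 88 in the change from vehicle to Cort without the intensity trend (150 with it) and 100 in a fit over all 24 libraries. With each library left out, counts were 3899 to 5191 with Cort, 4681 to 5358 in vehicle, 117 to 164 for the change, 3732 to 5394 with TCA plus Cort, 5032 to 5709 for the change from Cort to TCA plus Cort, and 2019 (without wt TCA replicate 1) to 2980 with TCA, against 3162. The causes were not tested.

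Scaling moved the balance of directions. With size factors from exon reads less Rn45s, higher and lower calls in tetra were 4655 and 2036 in vehicle, where the median gene moved to 0.11, 2183 and 2996 with TCA plus Cort, and 2194 and 3731 for the change from Cort to TCA plus Cort. With total exon reads they were 4083 and 2096 in vehicle, 1627 and 899 with TCA, 3484 and 1604 with TCA plus Cort, and 85 and 26 for the change from vehicle to Cort.

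With a replicate block, genes called numbered 5534 with Cort, 5236 in vehicle, 147 for the change from vehicle to Cort, 4223 with TCA, 5077 with TCA plus Cort and 6004 for the change from Cort to TCA plus Cort. Deviations of same-numbered Cort libraries correlated at 0.004, 0.097 and 0.037 across genes, and others at −0.117 to 0.089. Not every library correlated best with its own number. With 3 libraries per group, and the Cort libraries only, these correlations cannot decide whether the numbers pair the libraries.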

Other observations

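With TCA alone, which the report's gene groups do not cover, 22 of 24 tested genes of cholesterol synthesis and uptake were lower in tetra and 1 was higher (median −0.77), beside 12.7% and 12.1% of all tested genes. Of 25 NRF2 and glutathione genes, 12 were lower and 3 higher, with a median of −0.22. Replication histones were lower in tetra for 51 of 66, with a median of −0.42. Extracellular matrix genes were higher for 19 of 30 and lower for 1, with a median of 0.49. The 42 glucocorticoid-induced genes, of which 39 were tested there, split 10 and 10, with a median of −0.04. The lists were chosen with results of these data known.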
